A study of Drosophila melanogaster with 6 samples.

Results

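Metchnikowin (*Mtk*), Metchnikowin-like (*Mtkl*, listed under its older name *CG43236*) and Drosomycin (*Drs*) are 3 genes for short secreted immune peptides. They were picked by symbol from a deposited listing of 367 genes that differed between fly heads taken 4 hr after penetrating traumatic brain injury (PTBI) and uninjured heads. All 3 were found, and each was among the 259 genes listed as higher after PTBI. *Mtk* encodes a proline-rich antimicrobial peptide active against fungi and Gram-positive bacteria, and *Drs* encodes a disulphide-stabilised antifungal peptide of the defensin type. *Mtkl* is annotated from its likeness to *Mtk*. In *Drosophila*, antimicrobial peptides (AMPs) are made mainly by the fat body and released into the haemolymph. Their genes are switched on by the NF-κB transcription factors Dif and Dorsal at the end of the Toll pathway and by Relish at the end of the Imd pathway. *Drs* is the standard readout of Toll activity in adults, while *Mtk* is known to respond to both pathways.

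The study compared 3 head samples taken 4 hr after PTBI with 3 samples from uninjured males of the same age, to find signals that might start cell division in the injured brain. PTBI was done by pushing a fine metal needle through the head capsule of anaesthetised flies into both sides of the central brain. Every fly came from w; UAS-mCD8-GFP;; OK107-GAL4 parents crossed with yw, so injured and uninjured flies alike carried the OK107-GAL4 driver, used for its activity in the mushroom body, and a membrane-bound GFP. Flies were males gathered no later than 6 hr after eclosion, and each sample pooled about 100 to 120 heads. The labels call the samples of a group biological replicates. The uninjured flies were not pierced, so brain injury, wounding of the cuticle and anaesthesia cannot be told apart in this comparison. Whole heads hold brain, eye, fat body and blood cells, and in such bulk RNA more cells of a type and more transcript per cell cannot be told apart.

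The 3 genes are small and have no intron in Ensembl gene models on the BDGP6 build. *Mtk* lies on chromosome 2R from 15408846 to 15409113 on the plus strand. Its 268 bases code for 52 residues, between a 5′ UTR of 30 bases and a 3′ UTR of 79 bases. It sits inside the span of *Stacl*, a gene of the same strand, but shares no exon with it. *Mtkl* lies on the same arm, from 14638538 to 14638935 on the plus strand, 770 kb from *Mtk*, and codes for 50 residues. Its 2 annotated transcripts differ in the 3′ UTR, of 65 or 225 bases. *Drs* lies on chromosome 3L from 3369556 to 3369942 on the plus strand, and codes for 70 residues. No annotated exon of another gene overlaps any of the 3. Of the next 2 genes on each side of each member, 12 genes in all, 0 were in the listing. They include *Stacl* and noncoding genes. The share of all annotated genes that was listed was not computed, so this count does not set the neighbours apart from other genes.

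Values are RPKM, reads scaled to exon length and library size, so that levels can be set side by side between genes. Whole reads could be rebuilt from them for 357 of the 367 listed genes. The libraries held 24344258 to 35168816 reads after PTBI and 26540569 to 36162342 reads in uninjured heads. The 3 genes together took 1347, 1600 and 1643 CPM (reads scaled to library size alone) in the PTBI samples, against 153, 119 and 145 CPM in the uninjured samples.

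*Mtk* was at 2912, 3189 and 2728 RPKM in PTBI replicates 1, 2 and 3, against 272, 219 and 271 RPKM in uninjured replicates 1, 2 and 3. All PTBI samples lay far above all uninjured samples, and the lowest PTBI sample was 10.03 times the highest uninjured one. The groups were separate for 367 of the 367 listed genes (100.0%), so separation alone does not set *Mtk* apart. The means were 2943 ± 232 RPKM after PTBI and 254 ± 30.3 RPKM in uninjured heads (SD, n = 3 each), an 11.6-fold rise. This rests on 23565, 20807 and 25715 reads after PTBI and 2172, 2125 and 1931 reads in uninjured heads. *Mtk* was the steadiest of the 3 genes after injury. Its coefficient of variation among the PTBI samples was 7.88%, which ranked 27th from the lowest among the 259 genes listed as higher, whose median was 18.6%.

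*Mtkl* (*CG43236*) was at 90.0, 110 and 42.6 RPKM in PTBI replicates 1, 2 and 3, against 6.41, 5.56 and 5.68 RPKM in uninjured replicates 1, 2 and 3. The groups were far apart, but PTBI replicate 3 was less than the lower of the other PTBI samples by a factor of more than 2. The means were 81.0 ± 34.8 RPKM after PTBI and 5.88 ± 0.460 RPKM in uninjured heads (SD, n = 3 each), a 13.8-fold rise. Without PTBI replicate 3 the rise was 17.0-fold. The reads behind these values were 1082, 1069 and 596 after PTBI and 76, 80 and 60 in uninjured heads. The variation of 42.9% among the PTBI samples was thus well above the 3.305% that counting alone gives at this depth. In the uninjured samples the variation, 7.82%, was below the counting value of 11.8%. These counting values are for reads without molecular identifiers and cover counting error only.

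*Drs* was at 1371, 1811 and 2312 RPKM in PTBI replicates 1, 2 and 3, against 201, 151 and 181 RPKM in uninjured replicates 1, 2 and 3. Here PTBI replicate 3 was the highest sample and replicate 1 the lowest. The groups did not overlap, as for all 367 listed genes. The means were 1831 ± 471 RPKM after PTBI and 178 ± 25.2 RPKM in uninjured heads (SD, n = 3 each), a 10.3-fold rise. *Drs* had 16018, 17065 and 31461 reads after PTBI and 2317, 2113 and 1863 reads in uninjured heads. Its variation among the PTBI samples, 25.7%, lay between those of *Mtk* and *Mtkl*. In the uninjured heads, replicate 2 was the lowest sample for all 3 genes.

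**Figure D1:**
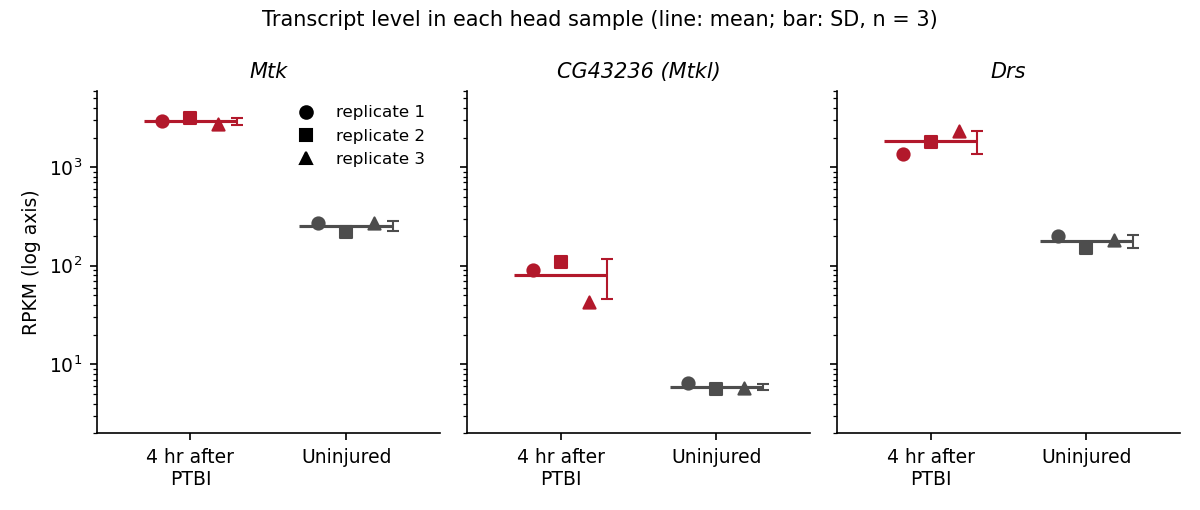
RPKM (log axis) of *Mtk*, *CG43236* (*Mtkl*) and *Drs* in each of the 3 PTBI and 3 uninjured head samples. Symbols mark the replicate number, horizontal lines the mean and bars the SD (n = 3). The groups are separate for each gene, as for all 367 listed genes. PTBI replicate 3 is the lowest PTBI sample for *Mtk* (2728) and *Mtkl* (42.6) and the highest for *Drs* (2312).

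In a limma fit of log2(RPKM + 1) over all 367 listed genes, the log2 difference between PTBI and uninjured heads was 3.53 for *Mtk* (standard error 0.12, Benjamini-Hochberg adjusted p = 7.2e-06). It was 3.47 for *Mtkl* (standard error 0.33, adjusted p = 9.8e-05) and 3.33 for *Drs* (standard error 0.21, adjusted p = 3.0e-05). All 3 members were called higher, where the same fit called 248 listed genes (67.6%) higher and 106 lower. Subtracting from every sample the median of its listed genes gave 161 calls higher and 126 lower, and the 3 members stayed among the higher ones. Because the listing holds only genes that had already passed the study's own test on these samples, these p-values are not independent evidence. The absence of overlap between the groups carries no weight either, since it held for 367 of the 367 listed genes (100.0%). For a single gene, the two-sided exact permutation test of 3 samples against 3 gave p = 0.1 for each member, the smallest value it can give. In rank of fold among the 259 genes listed as higher, *Mtkl* was 18th, *Mtk* 25th and *Drs* 29th.

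Whether the 3 genes rose by the same factor was examined through their ratios within a sample, where library size cancels. *Mtk* was 2.12, 1.76 and 1.18 times *Drs* in PTBI replicates 1, 2 and 3, against 1.354, 1.452 and 1.497 times in uninjured replicates 1, 2 and 3. In RPKM *Mtk* was thus above *Drs* in all 6 samples, but the PTBI ratios lay on both sides of the uninjured ones. By CPM, which ignores gene length, *Drs* was the higher in PTBI replicate 3 (894.6 against 731.2) and uninjured replicate 1 (77.76 against 72.89). *Mtk* was the higher by CPM in the other samples. The mean log2 ratio was 0.71 ± 0.43 after PTBI and 0.52 ± 0.07 in uninjured heads (SD, n = 3 each), a difference of 0.20 (two-sided exact permutation p = 0.5). *Mtkl* was far less abundant than *Mtk*, also by CPM (means of 32.2 against 789 after PTBI). Its RPKM divides by 398 bases, which cover both transcripts, and would be higher if only the shorter transcript were present. Which transcript was present was not tested. *Mtk* was 32.3, 28.9 and 64.1 times *Mtkl* in PTBI replicates 1, 2 and 3, against 42.4, 39.5 and 47.8 times in uninjured replicates 1, 2 and 3. The mean log2 ratio of *Mtkl* to *Mtk* differed by 0.14 between PTBI and uninjured heads (permutation p = 0.8). It turned to -0.062 with 1 RPKM added to each value, and to -0.0792 without PTBI replicate 2. *Drs* was 15.2, 16.4 and 54.3 times *Mtkl* in PTBI replicates 1, 2 and 3, against 31.4, 27.2 and 31.9 times in uninjured replicates 1, 2 and 3. The log2 ratio of *Mtkl* to *Drs* differed by 0.33 (permutation p = 0.6) with all samples and by 0.93 without PTBI replicate 3, where the exact test with 2 samples against 3 gave p = 0.2, its smallest value. The *Mtk* to *Drs* difference was 0.43 without PTBI replicate 3 and 0.01 without PTBI replicate 1. Over the 3 ratios the Benjamini-Hochberg adjusted p was 0.8 for each. None of the 3 differences was beyond the spread among the PTBI samples, and with 3 samples per group this does not show that the genes rose alike.

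**Figure D2:**
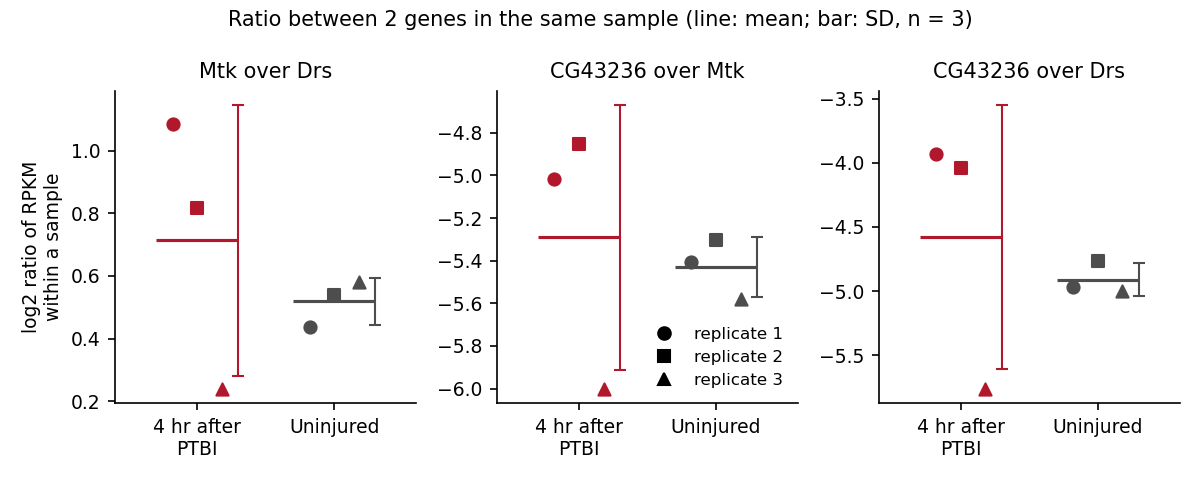
Log2 ratio of the RPKM of 1 gene to that of another in the same sample, for the 3 pairs, in PTBI and uninjured heads. Lines are means and bars the SD (n = 3), and each panel has its own scale. The uninjured samples lie close together in every panel, while PTBI replicate 3 is below all uninjured samples and PTBI replicates 1 and 2 above them.

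PTBI replicate 3 was compared with the other injured samples after the *Mtkl* values had been seen. Its RPKM was 0.425 times the mean of PTBI replicates 1 and 2 for *Mtkl*, 0.894 times for *Mtk* and 1.45 times for *Drs*. The median over the 259 genes listed as higher was 1.02. The value of *Mtkl* was the lowest of all 259 genes, and that of *Drs* was exceeded by 21 genes. Replicate 3 had the largest PTBI library, and it held more *Mtk* reads than either of the other PTBI samples but fewer *Mtkl* reads. The sources used here do not give how reads that map to more than 1 gene were counted, and reads shared between *Mtk* and *Mtkl* were not tested.

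**Figure D3:**
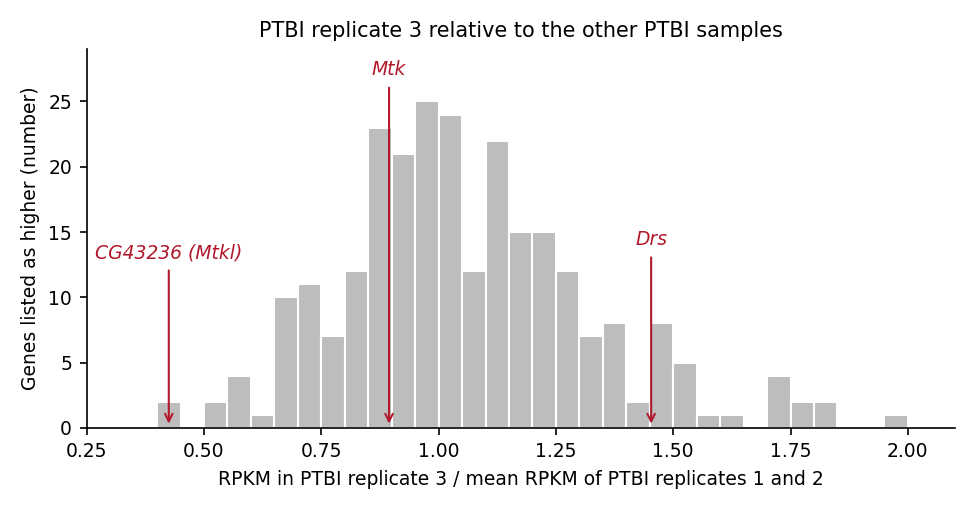
Distribution over the 259 genes listed as higher of the RPKM in PTBI replicate 3 divided by the mean RPKM of PTBI replicates 1 and 2 (x axis, a ratio; y axis, number of genes). Arrows mark *CG43236* (*Mtkl*) at 0.425, the lowest value, *Mtk* at 0.894 and *Drs* at 1.45.

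The PTBI sample with the highest value was counted for groups of immune genes. Of the 259 genes listed as higher, 35 were highest in PTBI replicate 1, 131 in PTBI replicate 2 and 93 in PTBI replicate 3. Of the 13 listed canonical AMP genes, which include *Mtk* and *Drs*, 10 had their highest PTBI value in replicate 2, *Mtk* among them. The other 3, *Drs*, *CecB* and *Dro*, were highest in replicate 3. Of 14 other listed genes known as Toll targets (Bomanins, Daishos, *BaraA1* and *Bbd*), 10 peaked in PTBI replicate 3, 4 in PTBI replicate 1 and 0 in PTBI replicate 2. These counts describe 3 samples, and no difference between the groups of genes was tested.

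Among the 13 listed canonical AMP genes and *Mtkl*, *Mtk* had the highest RPKM after PTBI, followed by *Drs*, *DptA* and *DptB*. The RPKM values of *Mtk* did not overlap those of *Drs*. Their CPM values after PTBI did, at 731.2 to 854.7 for *Mtk* and 530.5 to 894.6 for *Drs*. The ranking of the genes was not made by CPM. *Drs* at 1831 ± 471 RPKM overlapped *DptA* at 1688 ± 296 RPKM, and *DptA* overlapped *DptB* at 1572 ± 367 RPKM (SD, n = 3 each). In uninjured heads *Mtk* and *Drs* were again the highest in RPKM, and there *Drs* at 178 ± 25.2 RPKM was clear of *DptB* at 103 ± 26.0 RPKM. *DptA*, the gene of the antibacterial peptide Diptericin A, was at 81.2 ± 28.6 RPKM in uninjured heads and rose 20.8-fold. *Mtkl* was 11th of the 14 genes in both groups. After PTBI its samples overlapped those of *CecC*, a cecropin gene, at 57.9 ± 14.1 RPKM. By fold, *Mtkl* was 6th, *Mtk* 9th and *Drs* 11th of the 14, in a range from 35.0 for *CecB* to 9.06 for *AttA*. Read counts of the near-identical cecropin and attacin copies may be split between them, so their single values are uncertain. Over all listed genes, *Mtk* was 4th by RPKM after PTBI and *Drs* 7th, and in uninjured heads they were 16th and 21st.

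**Figure D4:**
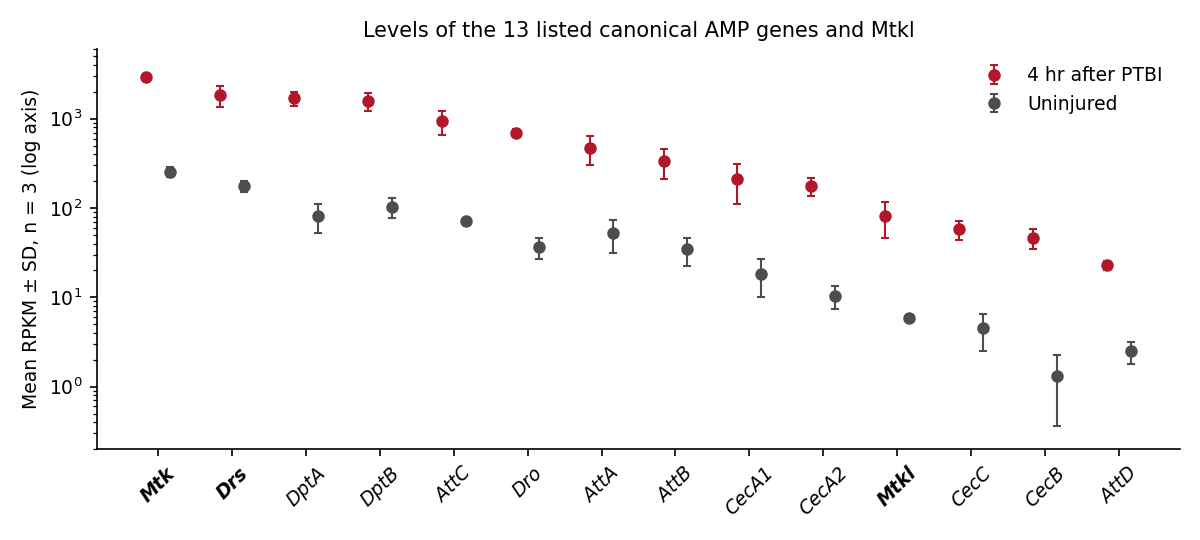
Mean RPKM ± SD (n = 3, log axis) of the 13 listed canonical AMP genes and *Mtkl*, ordered by level after PTBI, with the PTBI value left of the uninjured value of each gene. *Mtk* is highest in both groups (2943 after PTBI, 254 uninjured), *Drs* is next, and *Mtkl* is 11th of 14 (81.0 after PTBI, 5.88 uninjured).

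*Mtk* and *Drs* together held 46.3, 39.3 and 45.7% of the summed RPKM of the 13 AMP genes in PTBI replicates 1, 2 and 3, against 54.6, 47.2 and 50.8% in uninjured replicates 1, 2 and 3. The means were 43.7 ± 3.87% after PTBI and 50.9 ± 3.73% in uninjured heads (SD, n = 3 each). Their share was thus lower in every PTBI sample than in any uninjured one, and the mean difference was -7.14 percentage points (two-sided exact permutation p = 0.1, the smallest possible). *Drs* alone took 14.8, 14.2 and 21.0% after PTBI, against 23.2, 19.2 and 20.4% in uninjured heads, and these values overlapped. *Mtk* alone took 31.5, 25.1 and 24.7% after PTBI, against 31.4, 27.9 and 30.5% in uninjured heads, and these overlapped too. On the CPM scale, which ignores gene length, the joint share was 28.7 ± 3.38% after PTBI and 34.2 ± 3.85% in uninjured heads (SD, n = 3 each), where the groups overlapped (permutation p = 0.3). Between samples of the same replicate number the joint share was lower after PTBI in 3 of 3 pairs on both scales. On the RPKM scale any pairing would give this, since the groups did not overlap. No label pairs these samples, and a paired difference was not tested.

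The listed genes with the profile most like that of each member were found by the root mean square difference over the 6 samples of log2(RPKM + 1), set to the uninjured mean. For *Mtk* these were *CG43920* (0.27), *CG43175* (0.28) and *Drs* (0.29). *CG43920* was at 39.2, 56.6 and 39.2 RPKM in PTBI replicates 1, 2 and 3, against 3.61, 1.76 and 4.88 RPKM in uninjured heads. For *Drs* the nearest was *PGRP-SA* (0.29), which encodes a secreted peptidoglycan receptor upstream of Toll, followed by *Mtk* (0.29) and *CG43175* (0.31). *PGRP-SA* was at 45.7, 104 and 85.6 RPKM in PTBI replicates 1, 2 and 3, against 6.43, 6.95 and 7.51 RPKM in uninjured heads. It was highest in PTBI replicate 2 and *Drs* in PTBI replicate 3, so a small difference in this measure does not require the same order of replicates. For *Mtkl* the nearest were *Mtk* (0.36), *CG43175* (0.42) and *CG43920* (0.45), and *Drs* came 14th (0.60). *CG43175* was at 13.1, 26.9 and 16.8 RPKM in PTBI replicates 1, 2 and 3, against 0.785, 0.728 and 1.05 RPKM in uninjured heads. Its fold of 22.2 was larger than that of any member, and the 1 RPKM added to each value makes the rise of so low a gene look smaller in this measure.

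Other genes of the pathways around these peptides were counted from fixed lists. Of all 259 genes listed as higher, 248 were called, so a listed gene was called nearly by construction, and the counts say mainly which genes were listed. Of the 14 canonical AMP genes, 13 were called higher in the limma fit and *Def*, the Defensin gene, was not listed. The median log2 difference of the 13 was 3.53, beside 1.18 over the 259 genes listed as higher and 0.90 over all 367 listed genes. Of 17 other genes known as Toll targets, 14 were called higher and 3 were not listed. Their folds ran from 2.26 for *BomT3* to 7.89 for *BomBc1*, so that all 14 rose by a smaller factor than *Drs*, the lowest of the 3 members. Their mean levels after PTBI ran from 91.0 RPKM for *BomT1* to 4024 RPKM for *BomS2*, a span that reaches from near *Mtkl* to above *Mtk*. In uninjured heads they ran from 17.5 RPKM to 960 RPKM for the same genes, all above *Mtkl* at 5.88 RPKM. Of 22 genes of the Toll pathway, from a list of 24 symbols, 4 were called higher and 18 were not listed. *PGRP-SA* rose 11.2-fold, *PGRP-SD*, a related receptor, 3.41-fold, *spz*, the Toll ligand, 2.61-fold and *Hayan*, a serine protease, 2.19-fold. Of 24 genes of the Imd pathway, 3 were called higher and 21 were not listed. *PGRP-SC2*, an amidase that damps the pathway, rose 29.96-fold, *PGRP-SB1*, another amidase, 5.34-fold and *pirk*, an intracellular inhibitor, 2.97-fold. None of these lists had a member listed as lower. A gene that was not listed missed the authors' limits and may still have changed. By quantitative PCR the paper reports rises of *Rel* and *PGRP-LC*, of the Imd list, and *Spn88Ea*, of the Toll list, which were not listed. The share of all annotated genes that was listed was not computed beside these counts. *Drs* has 6 relatives, *Drsl1* to *Drsl6*, on the same chromosome arm, and none of them was listed.

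Most of the genes that mark cell types of the head were not in the listing, where 108 of all 367 genes were listed as lower. Of 10 fat body markers, 3 were listed, all as lower, and 7 were not. *Lsp2*, a larval storage protein gene, was at 74.8 ± 34.4 RPKM after PTBI and 885 ± 264 RPKM in uninjured heads (SD, n = 3 each). The summed RPKM of the 3 listed markers, *Lsp2*, *Lsp1beta* and *apolpp*, was 135, 241 and 314 in PTBI replicates 1, 2 and 3, against 1077, 1235 and 1690 in uninjured replicates 1, 2 and 3. The sum was lower in every PTBI sample than in any uninjured one, but this was given by the choice of genes. PTBI and uninjured samples were fully separate for 367 of 367 listed genes (100.0%). Any sum of genes listed as lower must therefore be lower in every PTBI sample. The 7 markers that were not listed have no values here, so a change of the fat body as a whole was not tested. Of 5 glial markers, *wrapper* and *Mdr65* were listed as lower, with a summed RPKM of 20.9 to 22.8 after PTBI and 58.9 to 64.8 in uninjured heads. None of the 4 neuronal, 4 photoreceptor and 6 haemocyte markers was listed, so the labelled tissue could not be checked against them. The part of these changes in the values of *Mtk*, *Mtkl* and *Drs* was not tested.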

How the data were processed

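Strand-specific mRNA libraries of 6 head samples (3 PTBI, 3 uninjured) gave single-end reads of 50 bp. The authors mapped them with Subjunc (Subread, no version stated) to the FlyBase genome (the sources used here name no release), summed reads by gene and applied voom and limma. The deposited RPKM values of each sample cover only genes that passed the authors' own limits, a change of at least 2-fold with adjusted p below 0.05. The deposited mean log2 expression was used only as a check. The deposited fold changes, p-values and adjusted p-values of the authors' own comparison were not used. Columns were matched to samples by library letter.

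Identifiers of 360 of 367 genes were found in Ensembl 115 (BDGP6). Exon lengths gave back whole reads, to within 0.02, for 357 genes in each of the 6 samples, and their mean log2 CPM, with 0.5 reads added, equalled the deposited mean within 1e-06. Depth comes from these reads.

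limma 3.58.1 (R 4.3.3) was fitted to log2(RPKM + 1) without a block, which understates the change of low genes, with Benjamini-Hochberg adjustment over 367 genes and calls at an adjusted p under 0.05. The fit was also run on simulated counts with unchanged genes and rises only. That setting differs from a listing of preselected genes, so it does not bear on the calls here. Python 3.11.15 was used otherwise. Over the listed genes, deviations from the group mean correlated weakly between same-numbered PTBI and uninjured samples (0.242, 0.122 and 0.162, each over the limit of 0.1). Samples of different numbers gave correlations from -0.21 to 0.023. No label ties a replicate number to a batch or day.

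The members and lists were chosen with earlier results of these data known. Named genes were the members, the 3 listed genes nearest to each, every listed canonical AMP, up to 4 genes with the largest fold of each other list, and neighbouring genes; *BomS2*, *BomT3* and the genes of the closing observations were named after their values were seen. Of the 24 symbols of the Toll list, *spheroide* was not matched and *Pellino* is another name of *Pli*, already in the list. Alternatives were other pseudocounts (0.1 and 5), a filter at a mean RPKM of 1, a replicate block, centring, voom on the rebuilt reads and leaving out each sample. No promoter or protein sequence was analysed here.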

Additional observations from a re-analysis of the deposited data

How the results depend on the processing

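The calls of *Mtk*, *CG43236* (*Mtkl*) and *Drs* as higher held under all 12 alternatives of the limma fit. The log2 difference ran from 2.87 to 3.58 for *Mtk*, from 2.81 to 3.87 for *Mtkl* and from 2.68 to 3.53 for *Drs*, each lowest with samples centred on their medians, and the adjusted p was at most 0.00034, 0.00076 and 0.00044. Centring lowers every log2 difference by 0.66, because most listed genes rose, and took the listed genes called higher to 161 instead of 248. With the replicate block the fit called 247 higher and 104 lower, and it changed no call of the 3 members. Leaving out each sample gave folds of 10.8 to 12 for *Mtk*, 11.3 to 17.0 for *Mtkl* and 8.95 to 11.6 for *Drs*, and 235 to 247 genes called higher. The within-sample log2 ratio of *Mtkl* to *Mtk*, 0.14 higher after PTBI with all samples, turned to -0.062 with a pseudocount of 1 and ran from -0.0792 (without PTBI replicate 2) to 0.495 (without PTBI replicate 3) with single samples left out. Adding 1 RPKM makes the rise of a low gene such as *Mtkl* look smaller than that of *Mtk*. The cause of the spread with single samples left out was not tested. The same range was 0.01 to 0.43 for *Mtk* to *Drs* and 0.01 to 0.93 for *Mtkl* to *Drs*. The listing of called genes, the small groups and the unknown counting of shared reads limit what these values show.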

Other observations

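After *Mtkl*, the genes listed as higher with the lowest level in PTBI replicate 3 relative to PTBI replicates 1 and 2 were *CG3108* (0.434), *CG11370* (0.520), *CG15155* (0.530), *CG11159* (0.564) and *Nop10* (0.580), which encodes a small protein of the nucleolar RNA-guided modification complexes. *CG3108*, *CG11370* and *CG11159* had at most 102 reads in any sample, while *Nop10* had 242, 230 and 178 reads in PTBI replicates 1, 2 and 3, against 104, 88 and 95 reads in uninjured replicates 1, 2 and 3. *Mtkl*, with 596 reads in PTBI replicate 3, was the most deeply covered gene of this group.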
